A study of Mus musculus with 4 samples.

Results

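The genes examined here are 9 named genes of apoptosis, necroptosis and the p53 response: Ripk1, Ripk3, Mlkl, Bax, Bcl2, Bbc3, Bcl2l11, Fas and Cdkn1a. The members are set by their names, a choice made with earlier results of these data known, and all 9 were found among the 18674 gene names of the deposited expression table, on 16 of its 23750 transcript rows. The table came from RNA-seq of the lumbar spinal cord of male mice at 100 days of age, with 1 library for each of 4 conditions. WT mice and G93A mice, which carry a human SOD1 gene with the G93A mutation and are a model of amyotrophic lateral sclerosis (ALS), received vehicle or spermidine (SD), a polyamine, 4 times a week for 30 days per the labels. The general section on SD in the methods states intraperitoneal doses of 5 mg/kg, which are not repeated for the mice that were sequenced. The G93A mice were of a high-expresser strain bred onto a B6/SJLF1 background, and the WT mice do not carry the transgene. The labels and methods do not say how many animals went into a library, and no library has a replicate. A difference between any of the 4 libraries therefore has no measured error and no p-value, and it compares these libraries and not the conditions.

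Apoptosis is carried out by caspases, which are switched on either from the mitochondrion or from the cell surface. At the mitochondrion, BAX opens the outer membrane, BCL2 holds it back, and the BH3-only proteins PUMA (the product of Bbc3) and BIM (the product of Bcl2l11) counter BCL2 and its relatives. At the surface, the death receptor FAS recruits caspase-8, and where caspase-8 is not active the kinases RIPK1 and RIPK3 can drive MLKL to rupture the plasma membrane, which is necroptosis. The transcription factor p53 can switch on Cdkn1a, which encodes the cell cycle inhibitor p21, as well as Bax, Bbc3 and Fas. These pathways have been studied in ALS because motor neurons die in this disease.

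The promoters are shown for Fas and Ripk3, the genes with the highest ratios of RPKM between the genotypes in both comparisons below, and for the genes whose promoter holds a match to the p53 half-site (Cdkn1a and Bax). All 9 genes had an entry among the RefSeq promoters of GRCm38.p6, with 14 start sites in all, and the 250 bases before each start were searched on both strands. Each sequence is written 5′ to 3′ on the strand of its gene, and capitals mark a p53 half-site decamer.
Cdkn1a, first start site, chr17:29090729-29090978, plus strand: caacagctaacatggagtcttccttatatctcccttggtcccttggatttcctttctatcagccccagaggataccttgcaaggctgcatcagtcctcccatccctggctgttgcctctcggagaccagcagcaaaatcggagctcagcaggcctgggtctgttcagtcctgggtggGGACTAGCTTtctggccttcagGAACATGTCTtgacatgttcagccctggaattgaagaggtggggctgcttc
Bax, chr7:45466899-45467148, minus strand: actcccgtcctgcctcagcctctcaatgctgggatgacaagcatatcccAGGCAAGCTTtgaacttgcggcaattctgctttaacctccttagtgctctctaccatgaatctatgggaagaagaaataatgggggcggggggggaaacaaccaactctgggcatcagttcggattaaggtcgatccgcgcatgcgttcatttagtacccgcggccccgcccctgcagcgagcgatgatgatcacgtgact
Fas, chr19:34290409-34290658, plus strand: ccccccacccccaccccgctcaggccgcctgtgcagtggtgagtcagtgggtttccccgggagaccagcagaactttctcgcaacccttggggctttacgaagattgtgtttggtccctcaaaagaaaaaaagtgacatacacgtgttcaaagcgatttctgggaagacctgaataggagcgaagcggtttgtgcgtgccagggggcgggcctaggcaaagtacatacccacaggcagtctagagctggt
Ripk3, chr14:55788858-55789107, minus strand: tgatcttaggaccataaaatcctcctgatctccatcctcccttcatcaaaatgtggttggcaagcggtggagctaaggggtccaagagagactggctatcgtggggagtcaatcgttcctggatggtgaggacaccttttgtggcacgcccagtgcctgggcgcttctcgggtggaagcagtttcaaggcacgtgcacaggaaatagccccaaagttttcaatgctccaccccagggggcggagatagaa
The window of the first Cdkn1a start held 2 half-site decamers, 73 to 64 and 51 to 42 bases before the start. The Bax window held 1, 201 to 192 bases before the start. The decamer reads the same way on both strands, so each match counts once, and 7.13% of 32841 RefSeq promoter windows of this length hold at least 1. No such match was found in the other 12 windows, among them that of the second Cdkn1a start and those of Fas and Bbc3. The first of 3 Bbc3 windows held 2 overlapping matches to the kappaB decamer, which 3.90% of the windows hold. A GC box (GGGCGG) lay in the windows of Bax, Fas and Ripk3, against 32.7% of all windows, and none of these 4 windows held a TATA box (TATAAA), which 12.4% of all windows hold. These are matches of letters, and binding was not measured.

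All values below are RPKM (reads scaled to the length of the transcript and to the size of the library, a unit inferred from the values), as the mean of a gene's rows. Differences are given as log2(RPKM + 0.1), and a gene is called higher or lower where it differs by 1.5-fold or more on that scale, which is a log2 difference of 0.58. The estimated depth ranged from about 36800000 to 38600000 read pairs per library. Here and below a pair is taken as 216 aligned bases, as the low values show, and the numbers would be 2.04 times as large for pairs of the 53-base reads that the methods state. The levels of the 9 genes spanned a wide range. Averaged over the libraries, Cdkn1a (15.7 RPKM) and Bax (15.1) lay above 79.1% and 78.2% of the names, and Ripk3 (0.195) and Mlkl (0.198) above 18.9% and 19.0% of them.

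In both G93A libraries every one of the 9 genes was at a higher level than in both WT libraries. Of all names in the table, 39.7% showed the same order. Between the vehicle libraries, 7 of the 9 genes were called higher in G93A and 0 were called lower, where 14.4% of all names were called higher and 5.31% lower. The 7 were Ripk1, Ripk3, Mlkl, Bax, Bcl2, Bbc3 and Fas. Between the SD libraries, 6 of the 9 were called higher in G93A (Ripk1, Ripk3, Bcl2, Bbc3, Fas and Cdkn1a) and 0 lower, where 17.1% of all names were called higher and 7.82% lower. These genotype comparisons share no library, and 5 genes were called higher in both: Ripk1, Ripk3, Bcl2, Bbc3 and Fas. This is 55.6% of the 9, beside 11.6% of all names. The median log2 difference of the 9 genes was 0.71 between the vehicle libraries and 1.14 between the SD libraries, beside 0.05 over all names in each. When names under a mean of 1 RPKM were left aside, 6 of the genes remained and 4 were called higher in each comparison, beside 13.1% and 15.8% of the names at that level.

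**Figure D1:**
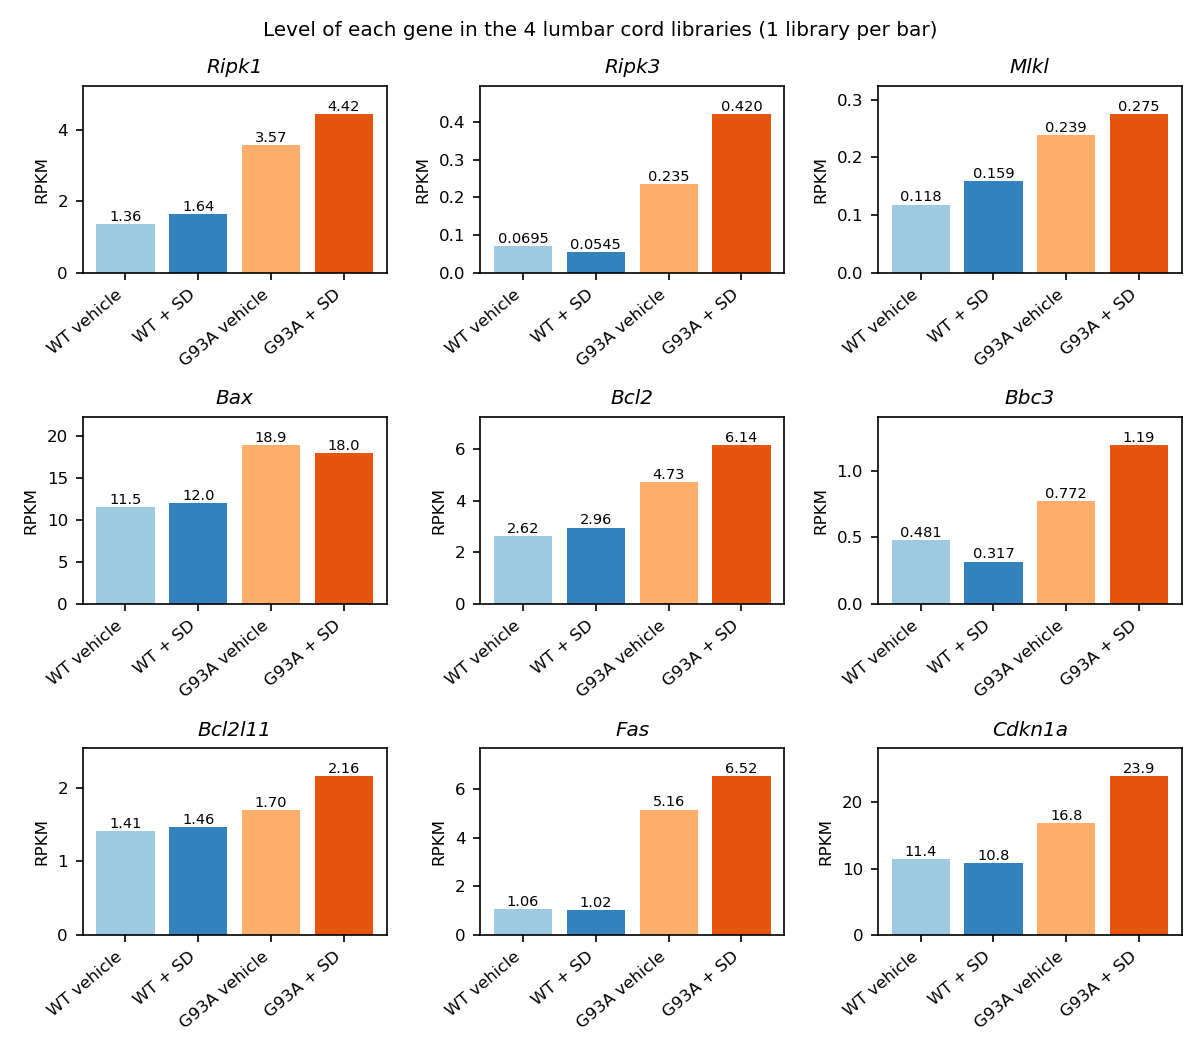
Level of each of the 9 genes in RPKM (vertical axes, each from 0) in the 4 libraries, 1 bar per library and no error bar since there are no replicates. In every panel both G93A bars stand above both WT bars, and the G93A + SD bar is the highest in 8 panels, Bax being the exception.

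The tissue was checked by its markers. The 4 Hox genes that mark the lumbar level were present in every library. They summed to 40.5 RPKM with vehicle and 40.6 with SD in WT, and to 28.3 and 26.1 in G93A, so that they were lower in G93A, with Hoxc10 past the limit for a call in both comparisons. The markers of several cell types differed between the genotypes as well. The summed level of 10 microglial markers was 171 RPKM with vehicle and 156 with SD in WT, and 959 and 972 in G93A, and all 10 markers were above their WT level in G93A in both comparisons, 8 and 9 of them by the limit for a call. The 8 astrocyte markers summed to 1485, 1426, 3857 and 4620 RPKM in the same order of libraries. Of these, 5 were called higher in G93A with vehicle and 6 with SD, and Gfap, from 441 to 2269 RPKM with vehicle, made up much of the sum, while S100b went from 465 to 411. Over the same libraries the 8 motor neuron markers summed to 407, 385, 220 and 144, of which Nefh alone made up 327, 313, 160 and 99.2. Of the 8, 4 were called lower in G93A with vehicle and 6 with SD, while Isl1 was slightly higher in both comparisons. In bulk tissue, fewer cells of a type and less RNA per cell cannot be told apart. The part of these shifts, the Hox genes included, in the differences of the 9 genes was not tested. The 7 markers of T and NK cells summed to between 0.058 and 0.733 RPKM, with Cd3e, Cd3d, Cd8a, Gzmb and Nkg7 each at 0 in at least 1 library.

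Of the genes of necroptosis, Ripk1 encodes the kinase that passes on the signal of death receptors. It lies at chr13:34002363-34037147 (GRCm38, plus strand). Its level was 1.36 RPKM with vehicle and 1.64 with SD in WT, and 3.57 and 4.42 in G93A. Both G93A libraries were thus more than 2-fold above both WT libraries. The log2 difference between genotypes was 1.33 with vehicle and 1.38 with SD, or 2.62-fold and 2.70-fold in RPKM, and about 324 to 1105 read pairs lay behind each value. Of the 108-base windows on its transcript, 6.35% also match the pseudogene Gm17084, which lies inside Ripk1.

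Ripk3 encodes the kinase that phosphorylates MLKL. It lies at chr14:55784995-55788865 on the minus strand. Its level was 0.0695 RPKM with vehicle and 0.0545 with SD in WT, and 0.235 and 0.420 in G93A. The G93A + SD library was 7.70-fold above WT + SD and the G93A vehicle library 3.38-fold above WT vehicle, or 1.75 and 0.98 on the log2 scale with its pseudocount. These levels rest on few reads. About 4 read pairs were estimated behind a row in WT + SD and 31 in G93A + SD, so that the WT level in particular is poorly known. The 3 rows of Ripk3 gave ratios between 3.22 and 3.50 with vehicle, but they share most of their exons and are not independent. With a pseudocount of 1 RPKM, which exceeds all of its levels, Ripk3 was called in neither genotype comparison, at 0.21 and 0.43.

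Mlkl encodes the protein that carries out necroptosis at the membrane. It lies at chr8:111311797-111338177 on the minus strand. Its level was 0.118 RPKM with vehicle and 0.159 with SD in WT, and 0.239 and 0.275 in G93A, with an estimated 8.60 read pairs in the lowest library and 20.96 in the highest. The order was the same as that of Ripk1, at a level about as low as that of Ripk3. The log2 difference between genotypes was 0.64 with vehicle and 0.53 with SD, so that it was called with vehicle only, and the difference between these values was not tested. With no pseudocount it was past the limit in both, at 1.02 and 0.78, and with a pseudocount of 1 RPKM in neither.

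Bax, the pore-forming member of the BCL-2 family, lies at chr7:45461697-45466898 on the minus strand. Its level was 11.55 RPKM with vehicle and 12.02 with SD in WT, and 18.89 and 17.97 in G93A. It was the only one of the 9 genes that was highest in G93A vehicle. The log2 difference between genotypes was 0.71 with vehicle and 0.577 with SD, the latter just under the limit of 0.585 for a call. Of its 108-base windows 11.3%, and of its 53-base windows 17.3%, lie on exons shared with Gm45808, an overlapping gene on the same strand, and reads there could belong to either.

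Bcl2 restrains BAX. It lies at chr1:106538178-106714274 on the minus strand, and its level was 2.62 RPKM with vehicle and 2.96 with SD in WT, and 4.73 and 6.14 in G93A. The level differed between genotypes by 0.83 on the log2 scale with vehicle and by 1.03 with SD. Its 2 transcripts differed in the same direction but not to the same extent. The longer, NM_009741, which has 2 exons, was 1.94-fold higher in G93A with vehicle, and the shorter, NM_177410, which has 1 exon, was 1.44-fold higher. The antisense gene D630008O14Rik covers 5.52% of the 108-base windows of the longer one, and since the sources used here give no strand-specific step, reads there could come from either. The ratio of the Bax level to the Bcl2 level was 4.40 with vehicle and 4.07 with SD in WT, and 4.00 and 2.93 in G93A. The G93A + SD library thus had the lowest of these ratios, and it was also the lowest, at 1.88, when the higher Bcl2 transcript was used in place of the mean.

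Bbc3 encodes PUMA, a BH3-only protein that p53 can induce, and lies at chr7:16308393-16318205 on the plus strand. Its level was 0.481 RPKM with vehicle and 0.317 with SD in WT, and 0.772 and 1.19 in G93A, from an estimated 32.1, 22.0, 53.2 and 83.3 read pairs. It was lowest in WT + SD and highest in G93A + SD. The log2 difference between genotypes was 0.586 with vehicle, just past the limit for a call, and 1.63 with SD. The call with vehicle was lost under median-ratio scaling of the libraries, at 0.53, and with a pseudocount of 1 RPKM, at 0.26, while the call with SD was kept under both.

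Bcl2l11 encodes BIM, the other BH3-only protein, and lies at chr2:128126038-128162547 on the plus strand. Its level was 1.41 RPKM with vehicle and 1.46 with SD in WT, and 1.70 and 2.16 in G93A. Of the 9 genes it had the smallest range between libraries, 1.53-fold, and the smallest genotype difference with vehicle, 0.26 on the log2 scale. The difference was 0.53 with SD, and neither was called.

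Fas, the death receptor at chr19:34290666-34327772 on the plus strand, had the largest genotype difference of the 9 genes in both comparisons on the log2 scale with its pseudocount, while Ripk3 had the higher ratio of RPKM with SD. Its level was 1.06 RPKM with vehicle and 1.02 with SD in WT, and 5.16 and 6.52 in G93A. The libraries of each genotype lay close together and the genotypes were far apart. The G93A level was 4.88-fold higher with vehicle and 6.39-fold higher with SD, or 2.18 and 2.56 on the log2 scale, above 98.2% and 98.4% of all names. Its transcripts NM_007987 and NM_001146708 were 4.79-fold and 5.14-fold higher in G93A with vehicle, and an estimated 10.0 read pairs were the fewest behind any of their values. The microglial marker sum was 5.61-fold and 6.23-fold higher in the same comparisons, and the astrocyte marker sum 2.60-fold and 3.24-fold. The part of either in the Fas difference was not tested.

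Cdkn1a encodes p21 and lies at chr17:29090976-29100727 on the plus strand. Its level was 11.4 RPKM with vehicle and 10.8 with SD in WT, and 16.8 and 23.9 in G93A. The WT libraries were close to each other, and the G93A + SD library stood above the G93A vehicle library by 0.51 on the log2 scale. The genotype difference was 0.55 with vehicle, which was not called, and 1.14 with SD, which was. Its transcripts, which start at different exons, gave almost the same ratio in the vehicle comparison, 1.48 and 1.47.

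**Figure D2:**
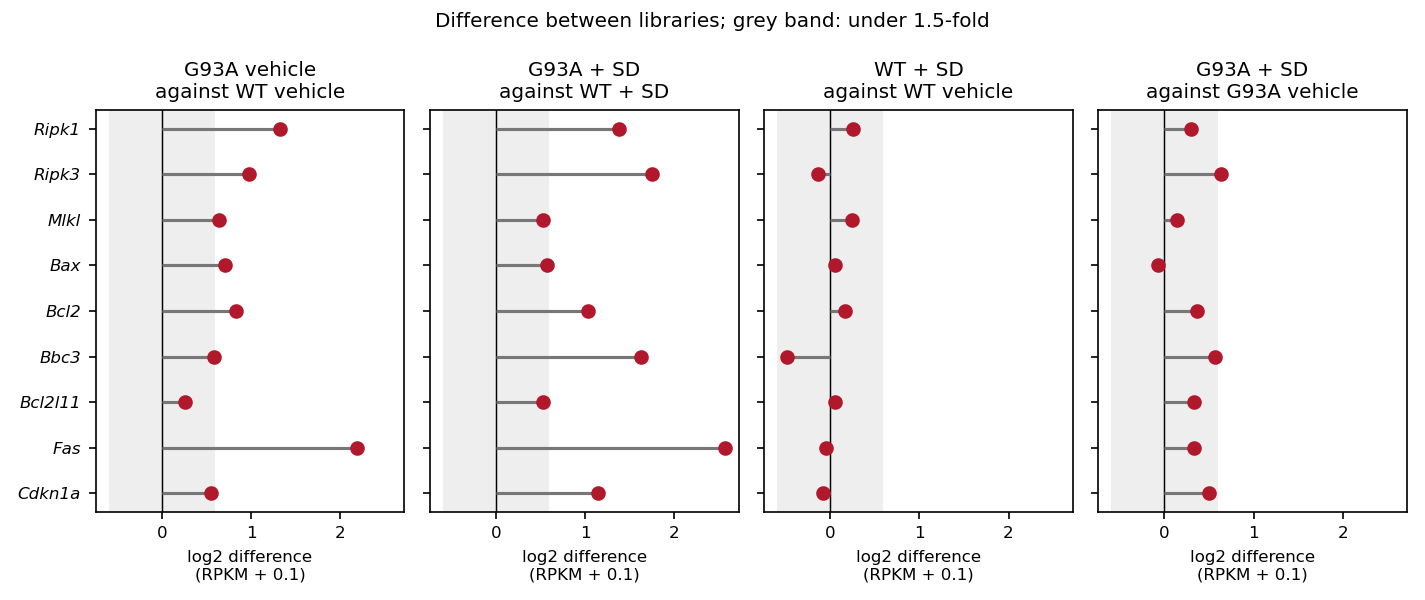
Log2 difference (RPKM + 0.1) of each of the 9 genes in the 4 comparisons, 1 panel each, with a point per gene and a grey band where the difference is under 1.5-fold. In the genotype panels all 9 points lie above 0, with Fas at 2.18 and 2.56, and in the SD panels 1 point, Ripk3 in G93A at 0.63, lies past the band.

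SD, given to test whether it modifies the disease in G93A mice, was compared with vehicle within each genotype. In WT, 0 of the 9 genes were called higher and 0 lower, where 2.25% of all names were called higher and 2.8% lower. In G93A, 1 of the 9 was called higher, Ripk3, and 0 lower, where 2.97% of all names were called higher and 2.55% lower. This call was lost with a pseudocount of 1 RPKM, at 0.20. The counts are thus small among the 9 genes and among all names. With no replicate, this does not show that SD left the genes where they were. These comparisons share no library with each other, but each shares its libraries with the genotype comparisons above.

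In G93A, 8 of the 9 genes were above 0 on the log2 scale with SD, and Bax was at -0.07. Ripk3 was at 0.63, Bbc3 at 0.56, Cdkn1a at 0.51 and Bcl2 at 0.37. Fas and Bcl2l11 were both at 0.33, Ripk1 at 0.30 and Mlkl at 0.14. The G93A + SD library was the highest of the 4 for these 8 genes, as it was for 36.7% of all names. The median of the 9 genes was 0.33, beside 0.01 over all names. In WT, 5 genes were above 0 and 4 below, from -0.48 for Bbc3 to 0.25 for Ripk1, and the median was 0.05. Between G93A vehicle and G93A + SD the summed motor neuron markers went from 220 to 144 RPKM, of which Nefh alone went from 159.9 to 99.2 and 2 of the 8 were called lower, and the astrocyte markers from 3857 to 4620, with 1 of 8 called higher, while the microglial markers were at 959 and 972. The part of these shifts in the SD differences was not tested.

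The difference of the SD differences, G93A minus WT, was 1.04 on the log2 scale for Bbc3, 0.77 for Ripk3 and 0.59 for Cdkn1a. These 3 of the 9 genes were past 1.5-fold, as were 9.87% of all names. Cdkn1a passed narrowly, at 0.587 against 0.585, and with a pseudocount of 1 RPKM none of the 3 did, at 0.47 for Bbc3, 0.22 for Ripk3 and 0.56 for Cdkn1a. The other 6 lay between -0.13 (Bax) and 0.38 (Fas). The SD differences had opposite signs in WT and G93A for 5 of the 9 genes and for 44.6% of all names, so that this share is near the background. For Ripk3, at an estimated 4 to 31 read pairs per row, and for Bbc3, at 22.0 to 83.3, counting alone leaves wide room around such a value.

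**Figure D3:**
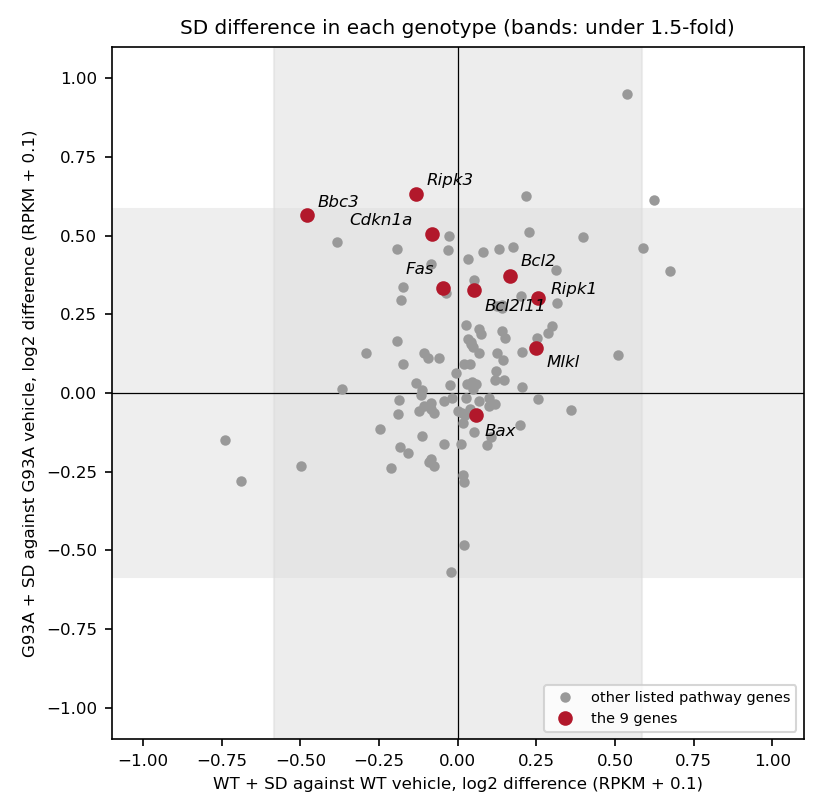
Log2 difference (RPKM + 0.1) between SD and vehicle in WT (horizontal) and in G93A (vertical), with the 9 genes in red and the other listed genes of the same pathways in grey, and bands where a difference is under 1.5-fold. Bbc3 lies at -0.48 and 0.56, and 8 of the 9 red points are above 0 on the vertical axis.

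The other genes of these pathways were read from 8 lists, which hold 107 names found in the table, without the 9 genes. Between the vehicle libraries 41 of them (38.3%) were called higher in G93A and 3 (2.80%) lower, and between the SD libraries 44 (41.1%) and 3. Their median log2 difference was 0.39 and 0.36. Over all names the shares of higher calls were 14.4% and 17.1%, those of lower calls 5.31% and 7.82%, and the median was 0.05 in each comparison. Within WT, SD gave 3 higher (2.80%) and 2 lower (1.87%) calls among the 107, and within G93A 3 higher (2.80%) and 0 lower, where of all names 2.25% and 2.8% were called in WT and 2.97% and 2.55% in G93A. The shares of higher calls are near those of all names.

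Among 14 other members of the BCL-2 family, 7 were called higher in G93A with vehicle and 9 with SD, and 0 lower in either. Mcl1, an inhibitor of apoptosis, was at 22.9 and 25.3 RPKM in WT (vehicle, then SD) and at 51.5 and 62.5 in G93A, the order used from here on. Bak1, which can form the pore as BAX does, was at 4.46, 4.11, 7.58 and 6.89 RPKM. Like Bax, it was highest in G93A vehicle. Bcl2a1b, at 0.668, 0.738, 14.6 and 17.7 RPKM, had the largest difference, 4.25 with vehicle on the log2 scale. It and its near-identical copies Bcl2a1a (2.86) and Bcl2a1d (3.29) can exchange reads, so the split between them is uncertain.

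Among 16 genes of caspases, the apoptosome and inhibitor of apoptosis (IAP) proteins, 5 were called higher and 1 lower in each genotype comparison. With a pseudocount of 1 RPKM the counts with vehicle were 2 and 0, and Casp6 was then at 0.51, under the limit. Casp6, a caspase gene, differed by 0.84 with vehicle and 1.17 with SD on the log2 scale, and Birc3, an IAP gene, was 2.83-fold and 3.08-fold higher. The gene called lower was Dffa, the inhibitor of the apoptotic DNase, at 32.1, 32.5, 21.1 and 15.1 RPKM, named here after its values were seen.

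Among 17 death ligands, receptors and adaptors, 8 were called higher in each comparison, with 1 lower call with vehicle and 0 with SD. Tnfrsf1a, the main receptor of TNF, was at 5.62, 5.19, 25.8 and 26.0 RPKM, a log2 difference of 2.18 and 2.30. Tnfrsf1b, the other TNF receptor, differed by 1.97 and 2.02. Casp8, the caspase that FAS recruits, differed by 1.94 and 2.07, from 0.773 RPKM in WT vehicle to 3.24 in G93A vehicle. The single lower call was Tnfsf10, the gene of the ligand TRAIL, from 0.859 to 0.456 RPKM, named after its values were seen.

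Among 15 other regulators of necroptosis, 4 were called higher with vehicle and 5 with SD, and 0 lower. Their median log2 difference was only 0.01 and 0.11. The toll-like receptor gene Tlr4 differed by 1.55 and 2.20, its adaptor Ticam1 by 1.41 and 1.32, and Tnfaip3, whose product A20 dampens TNF signalling, by 1.17 and 1.04. Zbp1, a sensor that can engage RIPK3, was at 0.125, 0.0394, 0.296 and 0.226 RPKM and was called higher in both comparisons at this low level, and in neither, at 0.20 and 0.24, with a pseudocount of 1 RPKM.

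Among 13 genes of p53 and its regulators, 3 were called higher in each comparison and 0 lower, with a median of 0.02 and 0.05. Trp53, the gene of p53, was at 5.37, 4.70, 8.79 and 8.66 RPKM, or 0.70 and 0.87 on the log2 scale. Rps27l was 2.02-fold and 2.27-fold higher. Chek2, a kinase of the DNA damage response, differed by 0.84 with vehicle and by 0.54 with SD, the latter under the limit for a call.

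Among 24 other p53 target genes, 10 were called higher in each comparison and 0 lower, with a median of 0.43 and 0.53. Gadd45a, a stress-induced growth arrest gene, was at 7.03, 7.29, 17.3 and 22.3 RPKM, 2.46-fold and 3.05-fold apart between the genotypes. Btg2, an antiproliferative gene, differed by 1.65 and 1.56, and Pmaip1, which encodes the BH3-only protein NOXA, by 1.175 and 1.654. Sulf2 differed by 0.85 and 0.86. Cdkn1a itself, at 0.55 and 1.14, lay above both list medians. Of the 6 other CDK inhibitors, 3 were called higher and 1 lower in each comparison. Cdkn2c differed by 1.75 and 2.34 and Cdkn1c, the lower one, by -0.793 and -1.098, while Cdkn1b, the closest relative listed at a level like that of Cdkn1a, was at 12.5, 13.9, 12.04 and 13.6 RPKM and was not called.

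Of 5 genes of pyroptosis, another lytic form of cell death, 3 were called higher in each comparison, with 0 lower calls with vehicle and 1 with SD. Gsdmd, the gene of the pore protein gasdermin D, differed by 1.55 and 1.52, Casp1 by 1.08 and 1.59, and Casp4 by 3.12 and 3.08. The microglial and astrocyte marker sums given above were higher in the same libraries as these gene groups, and the part of either was not tested.

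**Figure D4:**
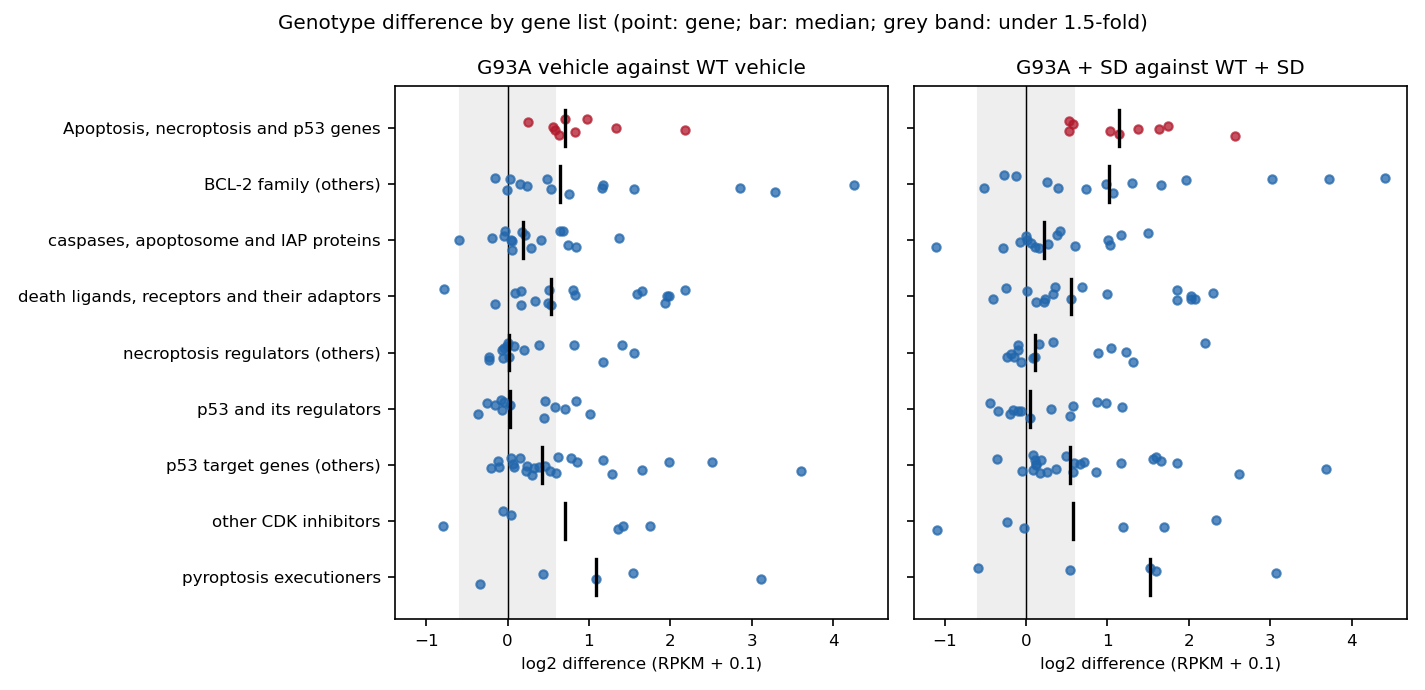
Log2 difference (RPKM + 0.1) between G93A and WT for the 9 genes (top row, red) and the 8 pathway lists (blue), with vehicle on the left and SD on the right, a point per gene, a black bar at each median and a grey band under 1.5-fold. The median of the 9 genes is 0.71 and 1.14, and that of the p53 regulators 0.02 and 0.05.

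Among partner genes set beside the 9, Mcl1, Bak1, Casp8, Zbp1 and Trp53 were called higher in G93A in both genotype comparisons, and Bcl2l1, Fasl, Fadd and Mdm2 were not called in both. Few of the listed genes were called between SD and vehicle, and they are named here after their values were seen. In WT, Ltb, Tnfrsf10b and Ngfr were called higher and Zbp1 and Cdkn2c lower. In G93A, Bik, Ltb and Trp63 were called higher, with Bik, a BH3-only gene, at 0.405 RPKM with vehicle and 0.876 with SD.

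The genes whose pattern over the 4 libraries was most like that of each of the 9 were sought among 8847 names with a mean of at least 5 RPKM, by the distance between centred log2 profiles. For Fas the nearest were Cd63 (distance 0.060), Plin2 (0.061) and Nckap1l (0.071), and 18 names lay within a distance of 0.2. For Ripk1 they were Lhfp (0.088), Cav2 (0.13) and Mcl1 (0.14), with 24 names within 0.2. For Cdkn1a they were Hspb8 (0.040), Decr1 (0.081) and Scpep1 (0.087), with 44 names within 0.2. For Bbc3, with Papss2 nearest at 0.11, 6 names lay within 0.2, and for Ripk3, with Ncan nearest at 0.14, 7. Bcl2 had 93 names within 0.2, with Man1a nearest at 0.015, followed by Ephx1 and Cpne3. Bax had 316 with Cib1 nearest, Mlkl 306 with Rpl23 nearest, and Bcl2l11 563 with Gstp1 nearest. With 4 libraries such likeness is a description of these libraries. A fixed distance takes in fewer names for a gene with a wide range, and the profiles of low genes such as Ripk3 are shaped by the pseudocount, so these numbers do not rank how widely a pattern is shared.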

How the data were processed

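Polyadenylated RNA of the lumbar cord was sequenced by the authors, in 53-base reads per the methods, and the methods name STAR (genome GRCm38) and then HTSeq with an Ensembl gene set. The deposited table lists RefSeq transcripts with 1 column per library, and the step to its values is not given in the sources used here. The values deposited by the authors were taken as RPKM, because their products with transcript length add up to totals that differ little between libraries. Ratio columns in the same table hold the authors' own comparisons and were not used.

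The level of a name was the mean of its rows. Differences were taken on log2(RPKM + 0.1) and called at 1.5-fold, over all 18674 names. No test was run, since each condition has 1 library. A fit over all 4 that leaves out the interaction of genotype and SD was not made. The calling step was tested on simulated data with counting noise only, for well-read genes and for differences well past the limit. This does not bear on low genes such as Ripk3, Mlkl and Bbc3, or on differences near 1.5-fold. Depth was estimated from the step between low values (the value of 1 aligned base). The step was sought only within a preset range, which limits the depths it could give. A pair was taken as 216 aligned bases. This does not match the stated read length. Of 2693 low values, 472 lay at 216 bases, 149 at 432 and 100 at 108, against 3 at 53 and 7 at 106. If a pair were 2 reads of 53 bases, every number of read pairs would be 2.04 times as large. Only 14 to 19 low values per library entered this, so the read pairs are estimates and no interval was taken from them. Positions and shared windows of 108 and 53 bases came from GENCODE M21 and promoters from RefSeq (GRCm38.p6). No protein sequence was used here.

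The members and the lists were chosen with earlier results of these data known. Genes were named by a rule: the 9 genes throughout, per list up to 3 genes (4 for p53 targets) with the largest absolute vehicle genotype difference among those with a mean of at least 1 RPKM, and the partner genes called higher in both genotype comparisons. One gene that the rule names is not reported here. Alternatives were median-ratio scaling, a pseudocount of 1 or none, a minimum mean of 1 RPKM, a 2-fold limit, and the sum or the highest row of a name. Python 3.11.15, numpy 2.4.6 and pandas 2.3.3 were used. The vehicle is given as PBS in the labels and as saline in another section of the methods.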

Additional observations from a re-analysis of the deposited data

Results flagged for a closer look

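For 5 of the 9 genes the SD difference had opposite signs in WT and G93A, as it had for 44.6% of all names, each from 1 library per condition, and the difference between the genotypes was not tested. On the log2 scale, G93A minus WT, it was 1.04 for Bbc3, 0.77 for Ripk3, 0.59 for Cdkn1a, 0.38 for Fas and -0.13 for Bax. For Fas and Bax the SD difference in WT was under 0.06 in size.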

How the results depend on the processing

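No paired analysis was possible because each condition has 1 library and the labels give no replicate numbers. Of 240 values of single genes among the 9 under 7 alternatives, 225 kept their direction and their side of the limit, 12 no longer passed it, 3 passed it newly, and 0 of the called values changed sign. The 7 higher calls between the vehicle libraries became 4 with a pseudocount of 1 RPKM, 4 among names with a mean of at least 1 RPKM and 2 at a 2-fold limit, where 8.31%, 13.1% and 7.34% of the names tested were called higher, against 14.4% as reported. The 1 higher call of SD in G93A became 0 under each of these settings and 2 with no pseudocount (Bbc3 joins Ripk3), and with no pseudocount 1 gene, Bbc3, was called lower by SD in WT. With no pseudocount 6.42% of the names tested were called higher by SD in G93A, against 2.97%, and 6.41% lower by SD in WT, against 2.80%. The 3 genes whose SD difference was 1.5-fold apart between the genotypes became 0 with a pseudocount of 1, 1 among names of at least 1 RPKM and 1 at 2-fold. Fewer genes are tested or a wider limit is set in some of these by construction, and a pseudocount of 1 exceeds the levels of Ripk3 and Mlkl. Under median-ratio scaling Bbc3 with vehicle was at 0.53, under the limit. The 6 higher calls between the SD libraries stayed within 1.5 times under every alternative. Among the pathway lists, higher calls between the vehicle libraries went from 5 to 2 (pseudocount of 1) and 1 (2-fold) for caspases and IAP proteins, from 3 to 5 (no pseudocount, or sum of rows) and 1 (2-fold) for p53 and its regulators, from 10 to 6 (2-fold) for p53 targets and from 3 to 1 (mean of at least 1 RPKM) for CDK inhibitors. Between the SD libraries they went from 3 to 1 for CDK inhibitors (pseudocount of 1, or mean of at least 1 RPKM) and for p53 and its regulators (2-fold). Of 13 list counts of lower calls or of calls between SD and vehicle that were above 0 (each from 1 to 3), 10 were at 0 with a pseudocount of 1 and 11 at 2-fold. The levels of Ripk3 and Mlkl rest on few read pairs.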
